A study of Homo sapiens with 30 samples.

Results

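The comparison asks how the response of HCT116 cells, a human colorectal cancer line, to ML-792 after 16 h differed from the response after 3.5 h. ML-792 is the compound labelled ML00754792, an inhibitor of the SUMO-activating enzyme. The members are the 12 HCT116 libraries without heat shock, out of 30 libraries in the series, and they form 4 groups of 3. Cells received ML-792 at 500 nM or DMSO at 0.01%, the vehicle, for 16 h or for 3.5 h. The cells of 3.5 h without heat shock are the unheated arm of a heat shock experiment. Per the labels' protocols, RNA came from biological triplicates and was sequenced as stranded mRNA libraries. Each value is FPKM, fragments per kilobase of transcript, scaled to the mapped fragments of the library, and changes are differences of log2(FPKM + 1), which understates the change of genes with low values. Of 30373 genes, 12462 were at 1 FPKM or more in at least 3 of the 12 libraries and were tested with limma. The tested quantity was the ML-792 change at 16 h minus the ML-792 change at 3.5 h, each against the DMSO libraries of its own time.

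SUMO proteins are small modifiers that are attached to lysines of other proteins by a short enzyme cascade. The activating enzyme, a dimer of SAE1 and UBA2, passes SUMO down this cascade, and ligases help place it on the target. SENP proteases mature SUMO and take it off again. Many targets are transcription factors, chromatin regulators and proteins that act in mitosis, and in many promoter settings the modification is known to go with repression. HCT116 carries a functional p53, a transcription factor that drives genes of arrest and repair. Chaperone genes, by contrast, are driven by heat shock factors, which are themselves known targets of SUMO.

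Promoter stretches of 6 genes are shown because their gene groups followed different time courses. HSPA8, SERPINH1 and HSPA1B are chaperone genes, and CCNB2, PLK1 and CENPA act in mitosis. Each sequence holds the 150 bases before the annotated transcription start in RefSeq on GRCh38.p14, read 5′ to 3′ on the gene's strand. The 3 chaperone stretches lie at chr11:123062137-123062286 (minus strand), chr11:75562103-75562252 (plus strand) and chr6:31827588-31827737 (plus strand). The 3 mitotic stretches lie at chr15:59104996-59105145 (plus strand), chr16:23678739-23678888 (plus strand) and chr2:26785906-26786055 (plus strand). Capitals mark GAANNTTC, a heat shock element bound by heat shock factors, in the first 3. In the other 3 they mark the CCAAT box and the cell cycle homology region (CHR), TTTGAA or TTCGAA, on either strand.
HSPA8: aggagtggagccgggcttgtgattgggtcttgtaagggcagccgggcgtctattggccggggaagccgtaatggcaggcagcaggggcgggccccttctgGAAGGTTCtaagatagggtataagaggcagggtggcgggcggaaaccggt
SERPINH1: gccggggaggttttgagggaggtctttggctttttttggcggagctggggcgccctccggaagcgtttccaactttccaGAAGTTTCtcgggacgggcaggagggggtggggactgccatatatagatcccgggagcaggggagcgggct
HSPA1B: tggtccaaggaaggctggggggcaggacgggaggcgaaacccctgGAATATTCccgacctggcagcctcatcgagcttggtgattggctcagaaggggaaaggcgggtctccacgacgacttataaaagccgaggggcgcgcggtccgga
CCNB2: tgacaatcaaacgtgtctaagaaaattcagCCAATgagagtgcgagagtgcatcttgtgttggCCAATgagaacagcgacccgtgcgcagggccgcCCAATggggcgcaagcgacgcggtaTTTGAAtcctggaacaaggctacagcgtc
PLK1: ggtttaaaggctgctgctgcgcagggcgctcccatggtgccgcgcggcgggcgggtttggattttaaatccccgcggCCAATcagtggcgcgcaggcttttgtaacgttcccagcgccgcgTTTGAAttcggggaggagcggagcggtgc
CENPA: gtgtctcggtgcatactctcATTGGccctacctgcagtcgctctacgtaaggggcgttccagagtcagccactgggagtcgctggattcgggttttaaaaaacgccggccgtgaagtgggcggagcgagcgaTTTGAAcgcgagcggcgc
The heat shock element stood in 9 of 22 chaperone promoters (40.9%) within 250 bases before the start, and in 3.81% of the 9545 tested genes with a promoter in the table. The CHR stood in 14 of 28 promoters of the G2 and mitosis list (50%), against 9.05% of all. The CCAAT box stood in 22 of those 28 (78.6%), against 35.5% of all. Both strands were searched, and a match describes the sequence only.

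The libraries of 3.5 h belong to the heat shock study of the labels' protocols and those of 16 h do not, so time and study cannot be told apart in what differs between them. In DMSO alone, 9858 genes (79.1% of those tested) differed between 16 h and 3.5 h. Estimated depth was 30.0 to 37.9 M fragments at 16 h and 52.2 to 80.2 M at 3.5 h, where DMSO libraries 1 and 3 came out at 40.1 and 27.4 M when their own step between low values was used. The median SD of a gene between replicates was 0.0700 and 0.0691 at 16 h (DMSO and ML-792) and 0.0440 and 0.0466 at 3.5 h. Levels also followed the GC content of transcripts differently. Across genes, each library's deviation from the gene mean had a Spearman correlation with GC content of 0.353 to 0.608 in DMSO at 16 h, 0.068 to 0.465 in ML-792 at 16 h, and -0.432 to -0.320 at 3.5 h. Of 16 colorectal epithelium markers, EPCAM, KRT8, KRT18, KRT19, CDH1 and CDX2 were at 1 FPKM or more, while CDX1 and TFF3 were listed at 0 in all 12 libraries. CD68, of 7 leukocyte markers, and COL1A1, of 8 fibroblast markers, were the ones at 1 FPKM or more, and none of 5 endothelial markers was. The summed leukocyte level was 4.78 to 5.18 FPKM in DMSO at 16 h, 3.75 to 4.02 in ML-792 at 16 h and 3.04 to 3.83 at 3.5 h. The summed fibroblast level was 5.72 to 6.63 FPKM at 16 h and 1.56 to 1.71 at 3.5 h. For the epithelium markers the sum was 1680 to 2090 FPKM at 16 h and 2660 to 2870 at 3.5 h.

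The ML-792 change differed between the times in 299 genes (2.4% of those tested) at an adjusted p under 0.05, with 140 higher (1.12%) and 159 lower (1.28%) at 16 h. At 16 h itself, 2541 genes changed (20.4%), 1350 up (10.8%) and 1191 down (9.56%). At 3.5 h, 366 genes changed (2.94%), 268 up (2.15%) and 98 down (0.786%). The early and late changes share no library. Of the 366 early genes, 260 changed the same way at 16 h (71.0%), which is 10.2% of the late genes, and 5 changed the opposite way. Across all genes the early and late changes had a Pearson r of 0.49 and a Spearman rho of 0.41, a description over genes that share libraries. A late call without an early call was rarely a tested difference: of 2276 genes called at 16 h alone, 234 differed between the times, and of 101 called at 3.5 h alone, 17 did. Of the late genes, 81.5% had the same sign at 3.5 h, and the share over all tested genes was not computed. Both changes also had a negative Spearman correlation with the GC content of transcripts across genes, -0.485 late and -0.142 early. The part of that in the shared signs was not tested.

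The 299 genes fell into 6 patterns. The largest pattern was the 234 genes gained late: 108 rose, with median changes of 0.015 at 3.5 h and 0.35 at 16 h, and 126 fell, with 0.003 and -0.37. In 35 genes a change present at 3.5 h had grown: 26 rises went from a median of 0.48 to 1.06 and 9 falls from -0.42 to -1.05. In 17 genes an early change was no longer called at 16 h, in 4 it had shrunk, in 5 it had turned to the opposite direction, and in 4 the difference alone passed. A further 221 genes changed the same way at both times with no called difference and are described as lasting, 166 up and 55 down. These medians describe genes sorted by the same values and carry no test. Without ML-792 16 h library 1 the patterns numbered 663 gained late, 68 grown, 34 transient and 12 opposite, and the lowest counts with another library left out were 109, 26, 10 and 3.

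**Figure D1:**
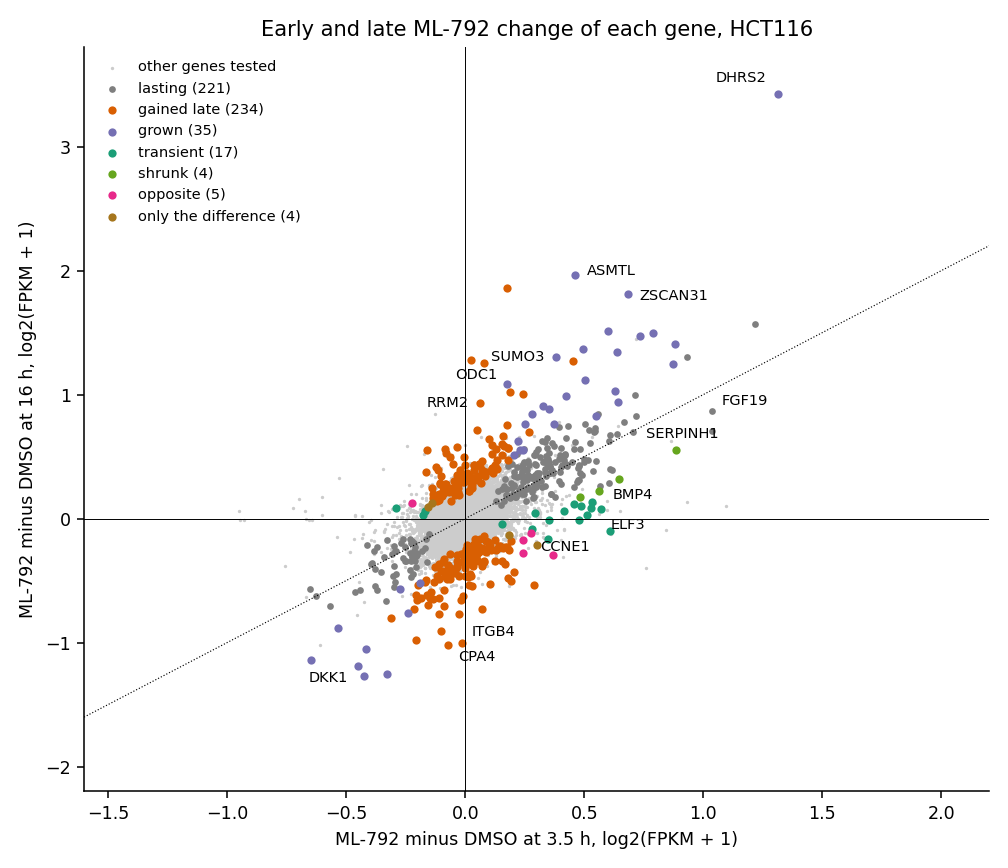
Each point is 1 of 12462 genes, with the ML-792 minus DMSO change in log2(FPKM + 1) at 3.5 h on the x axis and at 16 h on the y axis, coloured by response pattern, and the dotted line marks equal change. Most of the 234 genes gained late lie close to 0 on the x axis, and DHRS2 lies apart at the top with changes of 1.31 and 3.42.

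The counts depend on how the spread is modelled. With 1 weight per group, 304 genes differed, while the late count was 1597 and the early count 926. In fits of each time alone they were 1316 and 728. Scaling all libraries to equal totals left 299 differences but shifted them to 106 higher and 193 lower, and the late calls to 937 up and 1667 down. Removing a GC and length trend from each library gave 805 differences, 287 of them among the 299 (median GC content 44.8% in the higher genes, 54.7% in the lower and 48.7% in all tested genes). The late calls followed GC content too, with a median of 43.0% in late rises and 56.4% in late falls. With the trend removed, 3111 of 11745 genes were called late, and 2021 of the 2541 late genes were among them. Leaving out 1 library gave 808 differences without ML-792 16 h library 1 and 614 without DMSO 16 h library 1. It gave 156 to 186 without library 2 or 3 of ML-792 at 16 h, library 2 of DMSO at 16 h, any DMSO library of 3.5 h, or library 1 or 3 of ML-792 at 3.5 h. The late count was 3862, 1520, 1525 and 1675 without libraries 1, 2 and 3 of ML-792 and library 3 of DMSO at 16 h, and the early count was 235 without DMSO 3.5 h library 1. Among the genes described below, the difference was called in each fit run for DHRS2, ASMTL, SUMO3, ATF7IP, CDKN3, KLF11, RGS2, ZSCAN31, EREG, ODC1, RRM2, HLA-B, ITGB4, ADAM19, PLAU, DKK1, ALDH1A3, CD44, HAS3, CPA4, TUBB3, KLF4, KLF5, ELF3, CCNE1, TSPAN14 and H1F0. It was lost in the fit with all 18 HCT116 libraries, and in no other fit, for CDKN1A, SESN1, CCNE2, HSPA1B, DNAJB1, BMP4, CHAC1, DDIT4, HMOX1, FOSL1, PDE4B, ABLIM1, FAM195B, HIST1H1C and HIST1H2BK. Leaving out at least 1 of the 12 libraries in turn ended the call for MDM2, PLK1, PLK2, CCNB1, B2M, FAM111B, GADD45B, CENPA, CCNB2, DDB2, DDIT3, HERPUD1, CHAF1A, DUSP4, DUSP5, AREG, TNS4, NLN, KRT18, LIF, RELB and ZNF577.

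Rises that grew between the times led the list. DHRS2 encodes a short-chain dehydrogenase/reductase. DHRS2 was at 2.91, 3.74 and 3.17 FPKM in DMSO and 9.36, 9.64 and 9.77 FPKM in ML-792 at 3.5 h, and at 5.5, 5.47 and 5.98 FPKM in DMSO and 69.8, 72.4 and 68.9 FPKM in ML-792 at 16 h. The treated libraries of 16 h stood far above the other 9, and the change grew by 2.11 ± 0.086 (SE, n = 3 per group; limma adjusted p = 8.39e-09). ASMTL, a gene of the pseudoautosomal region related to bacterial maf proteins and methyltransferases, was at 16.9, 17.4 and 17.2 FPKM and 22.7, 24.4 and 25.1 FPKM in DMSO and ML-792 at 3.5 h. At 16 h ASMTL was at 18.9, 22.7 and 22.7 FPKM in DMSO and 89, 88.7 and 81.8 FPKM in ML-792, a further rise of 1.50 ± 0.088 (limma adjusted p = 6.07e-07). Early treated libraries lay above their DMSO libraries by 0.46, and late ones by 1.97. ZSCAN31, a zinc finger protein on the germline list, went from a change of 0.68 to 1.81, a difference of 1.12 ± 0.079 (limma adjusted p = 1.81e-06).

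ATF7IP, a partner of the H3K9 methyltransferase SETDB1, was at 7.94, 7.54 and 8.05 FPKM in DMSO and 14.3, 13.9 and 14.7 FPKM in ML-792 at 3.5 h. At 16 h ATF7IP was at 8.31, 7.33 and 7.53 FPKM in DMSO and 23.1, 24.1 and 23.7 FPKM in ML-792. Treated and vehicle libraries were separate at both times, and the rise grew from 0.79 to 1.50 (limma adjusted p of the difference 4.36e-05). CDKN3, a phosphatase that acts on cyclin-dependent kinases, rose by 0.88 and then 1.40. KLF11, a transcription factor of the Krüppel-like family, rose by 0.73 and 1.47, and RGS2, a regulator of G protein signalling, by 0.64 and 1.34. EREG, the EGFR ligand epiregulin, was at 159 and 199.9 FPKM at 3.5 h and at 133 and 250.0 FPKM at 16 h as means of DMSO and ML-792. The difference for EREG was 0.58 ± 0.060 (limma adjusted p = 8.78e-05). FAM195B and ABLIM1, an actin-binding LIM protein, rose by 0.28 and 0.25 early and by 0.84 and 0.76 late. The early call of FAM195B was lost without any 1 DMSO library of 3.5 h, or without ML-792 3.5 h library 1 or 2.

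For some genes the larger late change went with a DMSO level that differed between the times. RRM2, the small subunit of ribonucleotide reductase, was at 174, 179 and 180.1 FPKM in DMSO and 184, 190.3 and 183 FPKM in ML-792 at 3.5 h. At 16 h RRM2 was at 104, 106 and 101 FPKM in DMSO and 186, 202 and 207 FPKM in ML-792. The DMSO libraries of 16 h were the low ones, and the difference was 0.87 ± 0.057 (limma adjusted p = 1e-06), with no called change at 3.5 h. ODC1, the first enzyme of polyamine synthesis, was also lowest in DMSO at 16 h. It was at 377, 392 and 402 FPKM in DMSO and 442, 447 and 434 FPKM in ML-792 at 3.5 h. At 16 h ODC1 was at 191, 187 and 185 FPKM in DMSO and 373, 412 and 411 FPKM in ML-792, a difference of 0.91 ± 0.059 (limma adjusted p = 1e-06). The small early rise of ODC1, 0.18, was not called when any 1 of the 6 libraries of 3.5 h was left out. In HLA-B, an antigen-presenting molecule, the treated libraries of 16 h were the high ones: 53.2 and 52 FPKM at 3.5 h and 64.5 and 96.5 FPKM at 16 h in DMSO and ML-792 (difference 0.61 ± 0.063, limma adjusted p = 8.19e-05). B2M, the light chain of HLA class I molecules and chosen after its values were seen, had a difference of 0.29 (limma adjusted p = 0.0477).

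Of the 299 genes, 6 (0.0481% of those tested) differed by at least 2-fold, all higher at 16 h. Beside DHRS2, ASMTL and ZSCAN31 they were ACTL8, C20orf112 and GRHL1, which were named after their values were seen. ACTL8, an actin-like protein, was at 0.522, 0.607 and 0.617 FPKM in DMSO and 0.793, 0.946 and 0.63 FPKM in ML-792 at 3.5 h. At 16 h ACTL8 was at 0.316, 0.163 and 0.304 FPKM in DMSO and 3.45, 3.88 and 3.4 FPKM in ML-792 (difference 1.69 ± 0.11). GRHL1, an epithelial transcription factor of the grainyhead family, stood at 2.64, 2.84 and 2.6 FPKM in the other 3 groups and 7.57 FPKM in ML-792 at 16 h. C20orf112 differed by 1.26 ± 0.15. ACTL8 reached 1 FPKM in the treated libraries of 16 h and in no other, so it met the filter through that group alone. It was thus picked for being high there, and its difference is given as a description. Of the 299 called genes, 7 met the filter only through ML-792 at 16 h, all higher, and 4 only through DMSO at 16 h, all lower. Of all 12462 tested genes, 218 and 186 met it only through these groups.

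**Figure D2:**
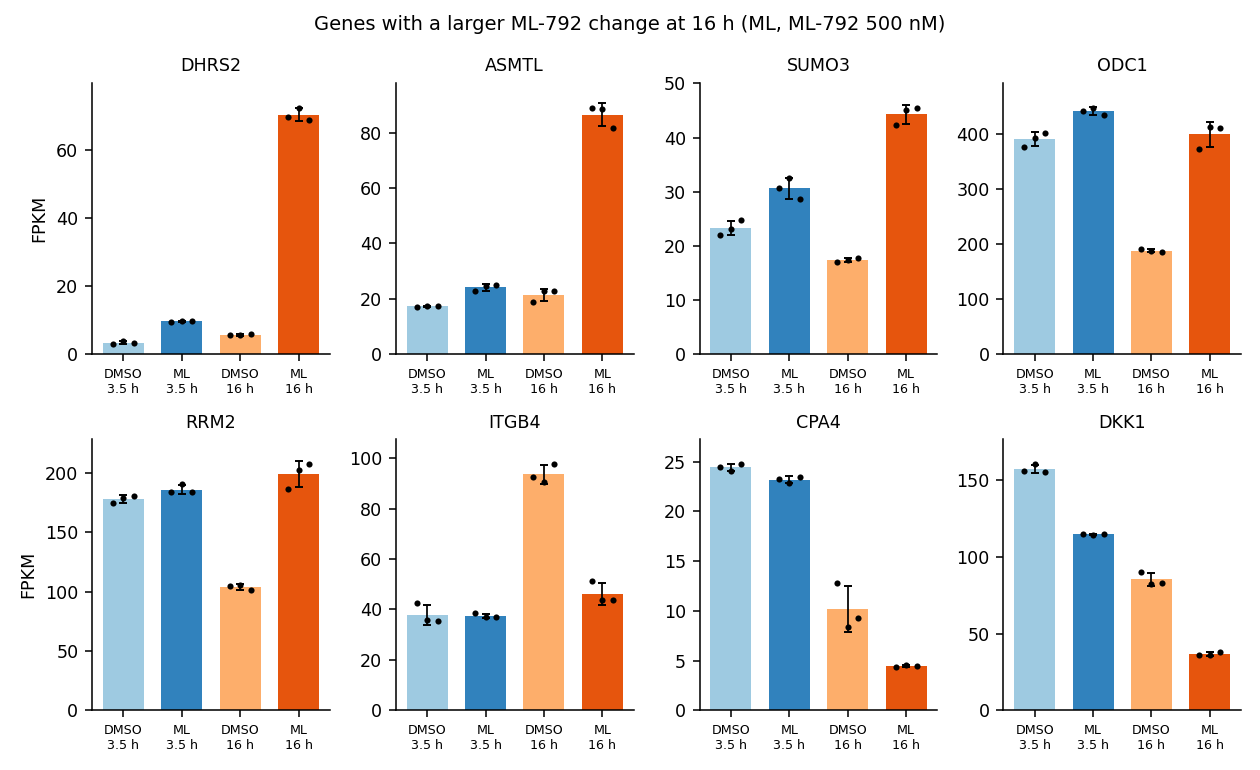
Bars are group means in FPKM with SD (n = 3), points are libraries, and ML stands for ML-792 at 500 nM. DHRS2, ASMTL and SUMO3 stand highest in ML-792 at 16 h, RRM2 and ODC1 stand lowest in DMSO at 16 h, and ITGB4 stands highest in DMSO at 16 h (93.6 FPKM).

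Within the SUMO pathway list of 27 tested genes, SUMO3 was the member whose change differed between the times (2.4% of all genes did). SUMO3, one of the conjugated modifiers, was at 22, 23.1 and 24.7 FPKM in DMSO and 30.7, 32.5 and 28.6 FPKM in ML-792 at 3.5 h. At 16 h SUMO3 was at 17.1, 17.4 and 17.7 FPKM in DMSO and 42.3, 45 and 45.5 FPKM in ML-792. The groups did not overlap at either time, and the rise grew from 0.38 to 1.30 (difference 0.92 ± 0.073, limma adjusted p = 6.34e-06). SUMO2, which is nearly identical to SUMO3 as a mature protein, rose by 0.19 and 0.44, a difference of 0.25 ± 0.065 that missed the threshold (limma adjusted p = 0.065). Its early call was lost when any library of 3.5 h, or ML-792 16 h library 2, was left out.

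Most genes of the enzymes were not called. SAE1, a subunit of the enzyme that ML-792 inhibits, had changes of 0.024 and -0.033, and its partner UBA2 had 0.022 and 0.042. The 6 SENP genes had differences between -0.091 (SENP3) and 0.17 (SENP5), none called. Over the list, 3 members rose at 3.5 h and 5 at 16 h, none fell at either time, and the median changes were 0.024 and 0.073, against -0.001 and 0.005 over all genes. Of all genes, 2.15% rose early and 10.8% late. The early count was 1 without DMSO 3.5 h library 1, the late count 9 without ML-792 16 h library 1, and differences numbered 3 without DMSO 16 h library 1. None of 12 genes of the PML nuclear body, a structure built on SUMO-modified PML, was called in any of the 3 comparisons.

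Falls that grew or were gained late included cell surface, matrix and protease genes. ITGB4, an integrin that anchors epithelia to laminin, was at 42.6, 35.7 and 35.4 FPKM in DMSO and 38.5, 36.9 and 36.9 FPKM in ML-792 at 3.5 h. At 16 h ITGB4 was at 92.5, 90.6 and 97.7 FPKM in DMSO and 51.1, 43.7 and 43.7 FPKM in ML-792. The DMSO libraries of 16 h were the high ones, and the difference was -0.99 ± 0.10 (limma adjusted p = 8.78e-05). ADAM19, a membrane metalloprotease, was at 30.2, 27.1 and 27.5 FPKM and 22.6, 21.7 and 22.4 FPKM at 3.5 h in DMSO and ML-792. At 16 h ADAM19 was at 29.8, 28.8 and 29.5 FPKM in DMSO and 13.1, 10.9 and 11.3 FPKM in ML-792. The treated libraries of 16 h were the lowest of the 12 (difference -0.92 ± 0.083, limma adjusted p = 2.52e-05). PLAU, the urokinase protease, fell by 0.65 and then by 1.14 on the log2 scale.

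On the invasion and protease list of 20 tested genes, 8 fell and 2 rose at 16 h, where 9.56% of all genes fell and 10.8% rose. At 3.5 h 3 fell and 1 rose, where 0.786% and 2.15% of all did. The difference was lower in 6 (1.28% of all genes), among them ADAM19, ITGB4, PLAU, TIMP2 and ITGA3, and higher in none. The median difference of the list was -0.17, against 0.004 over all genes, and the count of lower members was 6 or 7 in each fit that left out 1 library. TIMP2, an inhibitor of matrix metalloproteases, fell by 0.33 at 16 h.

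DKK1, a secreted WNT antagonist, was at 156, 161 and 156 FPKM in DMSO and 115, 114 and 115 FPKM in ML-792 at 3.5 h. At 16 h DKK1 was at 90.2, 82.7 and 83.3 FPKM in DMSO and 36.1, 36.4 and 38.1 FPKM in ML-792. The groups were separate at both times and the fall went from -0.45 to -1.19 (difference -0.74 ± 0.054, limma adjusted p = 2.98e-06). ALDH1A3, a retinaldehyde dehydrogenase, went from -0.42 to -1.05 (limma adjusted p of the difference 1e-06). CD44, a hyaluronan receptor, and HAS3, a hyaluronan synthase, both had late falls, -0.47 and -0.90, that were larger than the early changes of -0.027 and -0.10. CPA4, a secreted carboxypeptidase, was at 24.4, 24 and 24.8 FPKM in DMSO and 23.2, 22.9 and 23.5 FPKM in ML-792 at 3.5 h. At 16 h CPA4 was at 12.8, 8.39 and 9.29 FPKM in DMSO, a wide spread, and 4.33, 4.51 and 4.43 FPKM in ML-792. Of 14 tested genes on the WNT list, 1 rose and 1 fell early and 2 rose and 5 fell late. Of all genes, 2.15% rose and 0.786% fell early, and 10.8% rose and 9.56% fell late. DKK1 and CD44 had the difference called, both lower (1.28% of all genes), with 5 lower without DMSO 16 h library 1. Late rises on the WNT list numbered 1 without ML-792 16 h library 2.

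Other late falls were in TUBB3, a neuron-type tubulin (-0.21 early and -0.98 late), MLPH, melanophilin (-0.11 and -0.77), SCARA3, a scavenger receptor (-0.020 and -0.66), DBNDD1 (0.068 and -0.73) and TRNP1 (-0.008 and -0.62). In TUBB3 the DMSO libraries of 16 h were the high ones, at 82.4, 94.8 and 99.9 FPKM, against 58.8, 57.9 and 54.4 FPKM in DMSO at 3.5 h. KRT18, an epithelial keratin, fell by 0.24 at 16 h and had no called change at 3.5 h. KLF4, a transcription factor of epithelial differentiation, fell by 0.53 at 16 h, with 0.10 at 3.5 h (limma adjusted p of the difference 0.00074).

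The p53 targets are genes that p53 induces. Of 24 tested, 3 rose at 3.5 h (PLK2, PMAIP1 and GDF15), where 2.15% of all genes rose, and 11 rose at 16 h, where 10.8% of all did, and none fell at either time. The difference was higher in 7 (CDKN1A, DDB2, MDM2, PLK2, SESN1, TNFRSF10B and TP53INP1), against 1.12% of all genes, and lower in none. The median change was -0.044 at 3.5 h and 0.17 at 16 h, and 9 and 21 of the 24 changes were above 0. CDKN1A, the p53-induced inhibitor of cyclin-dependent kinases, was at 53.4, 52.1 and 52.1 FPKM in DMSO and 47.1, 47.6 and 48.7 FPKM in ML-792 at 3.5 h. At 16 h CDKN1A was at 124, 126 and 129 FPKM in DMSO and 145, 144 and 136 FPKM in ML-792. Treated libraries were thus below vehicle early (-0.13, not called) and above it late (0.17), and the difference was 0.30 ± 0.050 (limma adjusted p = 0.00541).

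MDM2, the ubiquitin ligase that p53 induces against itself, was at 36.9, 36.9 and 34 FPKM in DMSO and 31.2, 36.7 and 36.3 FPKM in ML-792 at 3.5 h. At 16 h MDM2 was at 28.1, 24.9 and 23.9 FPKM in DMSO and 31.8, 35.7 and 37.5 FPKM in ML-792. Early groups overlapped, late groups did not, and the difference was 0.49 ± 0.11 (limma adjusted p = 0.0308). SESN1, a stress-induced sestrin, differed by 0.39, DDB2, a DNA damage sensor, by 0.24, and PLK2, a polo-like kinase, by 0.28. The count of higher members was 2 to 5 when any 1 of 10 libraries was left out (2 without ML-792 16 h library 2) and 11 without library 1 of DMSO or of ML-792 at 16 h. The fit with all 18 HCT116 libraries called none and the equal totals 3, while the median difference lay between 0.18 and 0.25 in the fits run.

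Genes of G2 and mitosis drive chromosome separation. In bulk RNA, more cells in a phase and more RNA per cell cannot be told apart. Of 34 tested, 27 rose at 16 h (10.8% of all genes did) and none fell. At 3.5 h 4 rose (2.15% of all) and none fell, and the median changes were 0.21 and 0.055. The difference was higher in 7 (1.12% of all): CDKN3, CENPA, CCNB2, PLK1, KIF20A, CCNB1 and KIF2C. CCNB1, a mitotic cyclin, was at 180.3, 186 and 185 FPKM in DMSO and 199.9, 206 and 197 FPKM in ML-792 at 3.5 h. At 16 h CCNB1 was at 119, 118 and 110.5 FPKM in DMSO and 144, 158 and 159.7 FPKM in ML-792. Treated libraries lay above vehicle at both times by 0.13 (not called) and 0.40, and the difference was 0.28 ± 0.061 (limma adjusted p = 0.0304).

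CENPA, the centromeric histone H3 variant, rose by 0.23 and 0.55. CCNB2 and the mitotic kinase PLK1, whose promoter stretches with CHR and CCAAT box are printed above, had changes of 0.047 and 0.025 early and rose by 0.34 and 0.26 late. TOP2A, a topoisomerase of condensing chromosomes, and BUB1, a spindle checkpoint kinase, rose late by 0.25 and 0.17 without a called difference (limma adjusted p = 0.233 and 0.0991). The early call of CENPA was lost without DMSO 3.5 h library 3. The late count was 20 without ML-792 16 h library 3, 28 without its library 1 and 15 in the fit with all 18 HCT116 libraries, where the early count and the count of differences were 1 each. The count of differences was 1 without ML-792 16 h library 2, 2 to 4 without 9 of the other libraries in turn, and 12 without library 1 of either group of 16 h. The median difference stayed between 0.12 and 0.21.

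The list of DNA replication and S phase had 36 tested genes. At 3.5 h 3 rose (CCNE2, CCNE1 and CDC6), where 2.15% of all genes did. At 16 h 2 rose and 8 fell, where 10.8% and 9.56% of all did, with medians of 0.029 and -0.009. The difference was higher in RRM2 (1.12% of all genes) and lower in CCNE1 and CCNE2 (1.28% of all), the cyclins that start S phase. CCNE1 was at 28.9, 29 and 29.4 FPKM in DMSO and 35.4, 35.7 and 35 FPKM in ML-792 at 3.5 h. At 16 h CCNE1 was at 19.1, 17.5 and 18.1 FPKM in DMSO and 17, 16.5 and 16.7 FPKM in ML-792. It rose early by 0.27 and stood slightly lower late by -0.12, a late call (limma adjusted p = 0.0424) that was lost in 10 of the 12 fits without 1 library, and the difference was -0.39 ± 0.054 (limma adjusted p = 0.00126).

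CCNE2 was at 16.1, 19.5 and 18.1 FPKM in DMSO and 25.4, 26 and 26.2 FPKM in ML-792 at 3.5 h. At 16 h CCNE2 was at 8.63, 8.97 and 8.48 FPKM in DMSO and 7.99, 9.33 and 9.34 FPKM in ML-792. Its early groups were separate and its late groups overlapped (difference -0.49 ± 0.092, limma adjusted p = 0.0126). The late falls on the list were E2F1 and E2F2, transcription factors of S phase genes (-0.37 and -0.29), MCM2, MCM5 and MCM10 of the replication origin machinery (-0.14, -0.24 and -0.15), RFC2, RFC5 and CCNE1. The number of late falls was 5 without DMSO 16 h library 2, 11 without ML-792 16 h library 1 and 2 in the fit of 16 h alone. Late rises numbered 1 without DMSO 16 h library 2 and 4 without ML-792 16 h library 1. Of 8 CDK inhibitors, 4 rose early and 5 late (2.15% and 10.8% of all genes). The difference was higher in CDKN3 and CDKN1A (1.12% of all genes). CDKN2C rose by 0.43 and 0.74 and CDKN1B by 0.19 and 0.28, with no called difference.

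**Figure D3:**
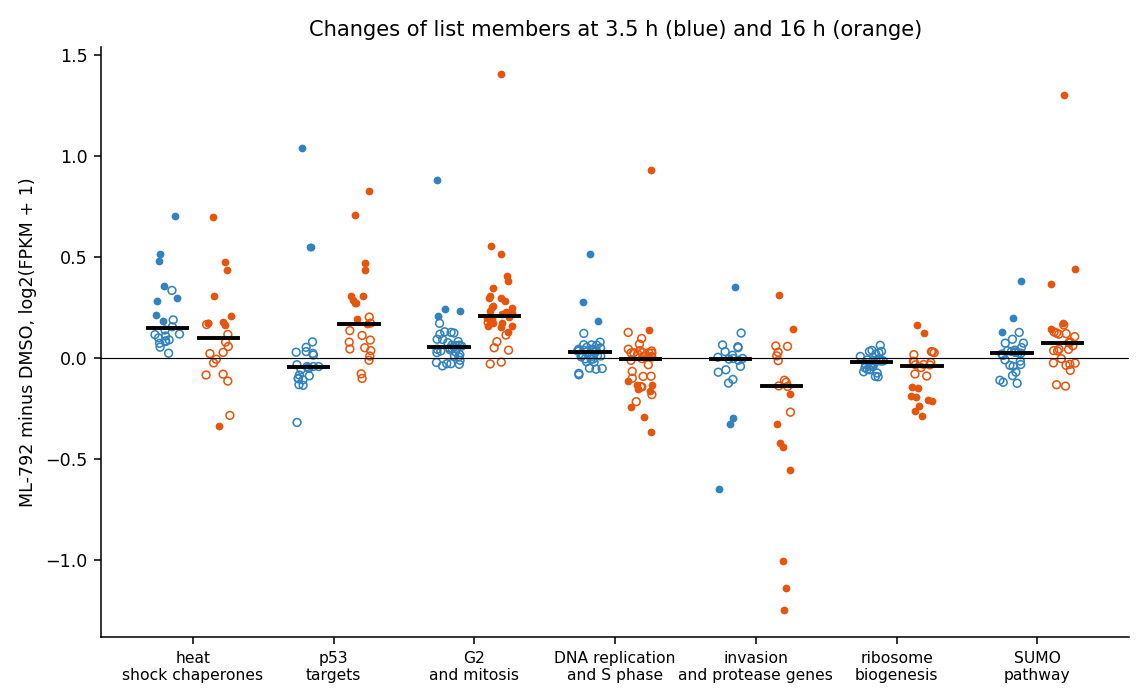
Points are genes of 7 lists with their ML-792 minus DMSO change in log2(FPKM + 1) at 3.5 h (blue) and 16 h (orange), filled where the adjusted p was under 0.05, and black bars are list medians. The chaperone points lie above 0 at 3.5 h (22 of 22), the p53 and mitotic points move up at 16 h, and the invasion and protease points spread downward at 16 h.

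Heat shock chaperones refold proteins. At 3.5 h all 22 tested members had a change above 0, as did 6171 of all 12462 genes, and 8 rose (2.15% of all), with a median of 0.15. At 16 h 15 of 22 were above 0 (6412 of all 12462), 9 rose (10.8% of all) and 1 fell, with a median of 0.096. The 9 late rises were 2 in the fit with all 18 HCT116 libraries. The difference was lower in DNAJB1 and HSPA1B (1.28% of all genes) and higher in none (1.12% of all). DNAJB1, a cofactor of HSP70, was at 122, 133 and 130.2 FPKM in DMSO and 175, 177 and 187 FPKM in ML-792 at 3.5 h. At 16 h DNAJB1 was at 101, 103 and 99.8 FPKM in DMSO and 117, 115 and 110.2 FPKM in ML-792. The groups were separate at both times, and the rise shrank from 0.48 to 0.17 (difference -0.31 ± 0.057, limma adjusted p = 0.0108).

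HSPA1B, an inducible HSP70 gene that shares most of its sequence with HSPA1A, so that fragments could be split between them, was at 172, 185 and 167 FPKM in DMSO and 189, 198 and 197 FPKM in ML-792 at 3.5 h. At 16 h HSPA1B was at 209.9, 234 and 238 FPKM in DMSO and 195, 180.2 and 163 FPKM in ML-792. Treated libraries were above vehicle early (0.15, not called) and below it late (-0.34), a difference of -0.49 ± 0.089 (limma adjusted p = 0.0104). SERPINH1, a collagen chaperone, was at 68.7 and 112 FPKM at 3.5 h and 64.2 and 105 FPKM at 16 h in DMSO and ML-792, with a difference of -0.008 ± 0.078. HSPH1, an HSP70 exchange factor, rose by 0.51 and 0.47, and HSPA8, the constitutive HSP70, by 0.21 and 0.18. The 3 chaperone genes with printed elements therefore differed in course: SERPINH1 and HSPA8 were lasting, and HSPA1B fell late. The early count was 5 without DMSO 3.5 h library 1, 11 without DMSO 16 h library 1, 3 in the fit with all 18 HCT116 libraries and 15 with the GC and length trend removed.

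Of 19 genes of the endoplasmic reticulum unfolded protein response, 6 rose early and 6 late, where 2.15% and 10.8% of all genes rose. With all 18 HCT116 libraries these were 2 and 3. HERPUD1, a degradation factor, had the difference called (2.4% of all genes did), with 0.28 early and -0.083 late. Its difference was lost without DMSO 16 h library 3, among others, and its early call without DMSO 3.5 h library 1 or ML-792 3.5 h library 3. Of 24 genes of the ATF4 and amino acid response, 1 rose early (2.15% of all) and 6 fell late (9.56% of all), and the difference was lower in 3 (1.28% of all). CHAC1, a glutathione-degrading enzyme, was at 2.56, 2.52 and 2.26 FPKM in DMSO and 3.17, 3.29 and 3.14 FPKM in ML-792 at 3.5 h. At 16 h CHAC1 was at 11.6, 12.6 and 16.1 FPKM in DMSO and 8.88, 9 and 8.73 FPKM in ML-792. It stood 0.29 above vehicle early (not called) and 0.54 below it late, and all 3 DMSO libraries of 16 h were above all those of 3.5 h (difference -0.82 ± 0.12, limma adjusted p = 0.002). DDIT4, an inhibitor of mTOR signalling, had changes of 0.20 and -0.43, and DDIT3, the transcription factor CHOP, 0.46 and 0.12. Late falls on the ATF4 list numbered 2 without DMSO 16 h library 3, 1 with all 18 HCT116 libraries and 12 with equal totals.

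Early rises that were no longer called at 16 h numbered 14, and early falls 3. KLF5, a transcription factor of intestinal epithelium, was at 20.8, 20.8 and 19.5 FPKM in DMSO and 31.2, 29.2 and 29.1 FPKM in ML-792 at 3.5 h. At 16 h KLF5 was at 19.2, 20.4 and 18 FPKM in DMSO and 20.4, 20.9 and 21.9 FPKM in ML-792. The treated libraries of 3.5 h stood above the other 9, and the difference was -0.40 ± 0.070 (limma adjusted p = 0.00708). ELF3, an ETS factor of epithelia, rose by 0.57 at 3.5 h and had 0.076 at 16 h, where the DMSO libraries spread from 14.7 to 18.6 FPKM. NLN, the protease neurolysin, and DUSP5, a MAP kinase phosphatase, rose early by 0.48 and 0.29. AREG, the EGFR ligand amphiregulin, fell early by 0.17 and had 0.063 late. Its early call was lost without DMSO 3.5 h library 1 or 2, or without any 1 ML-792 library of 3.5 h.

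BMP4, a secreted growth factor, shrank: 50.7, 52.7 and 53.8 FPKM in DMSO and 76.6, 80.2 and 76.6 FPKM in ML-792 at 3.5 h, then 47.4, 53.5 and 53.1 FPKM in DMSO and 61.3, 60.1 and 58.8 FPKM in ML-792 at 16 h. Its rise went from 0.56 to 0.22 (difference -0.34 ± 0.065, limma adjusted p = 0.0138). TNS4, a focal adhesion tensin, went from 0.89 to 0.55 and FAM111B, a protease, from 0.65 to 0.32, with DNAJB1 as the other member. The 5 genes with opposite changes were CCNE1, TSPAN14, KIAA0040 and HP08874, which rose early and fell late, and PDE4B, which fell early and rose late. TSPAN14, a tetraspanin, was at 22.1, 20.9 and 20.7 FPKM and 24.9, 24.8 and 26.1 FPKM at 3.5 h and at 18.4, 17.9 and 18.1 FPKM and 16.6, 15.7 and 15.6 FPKM at 16 h in DMSO and ML-792. PDE4B, a cyclic AMP phosphodiesterase, had -0.22 and 0.13, and its late call was lost without library 2 or 3 of DMSO or of ML-792 at 16 h. KIAA0040 and HP08874 were named after their values were seen, and HP08874 met the filter only through DMSO at 16 h, with means of 0.604 and 1.07 FPKM at 3.5 h and 1.19 and 0.78 FPKM at 16 h in DMSO and ML-792.

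**Figure D4:**
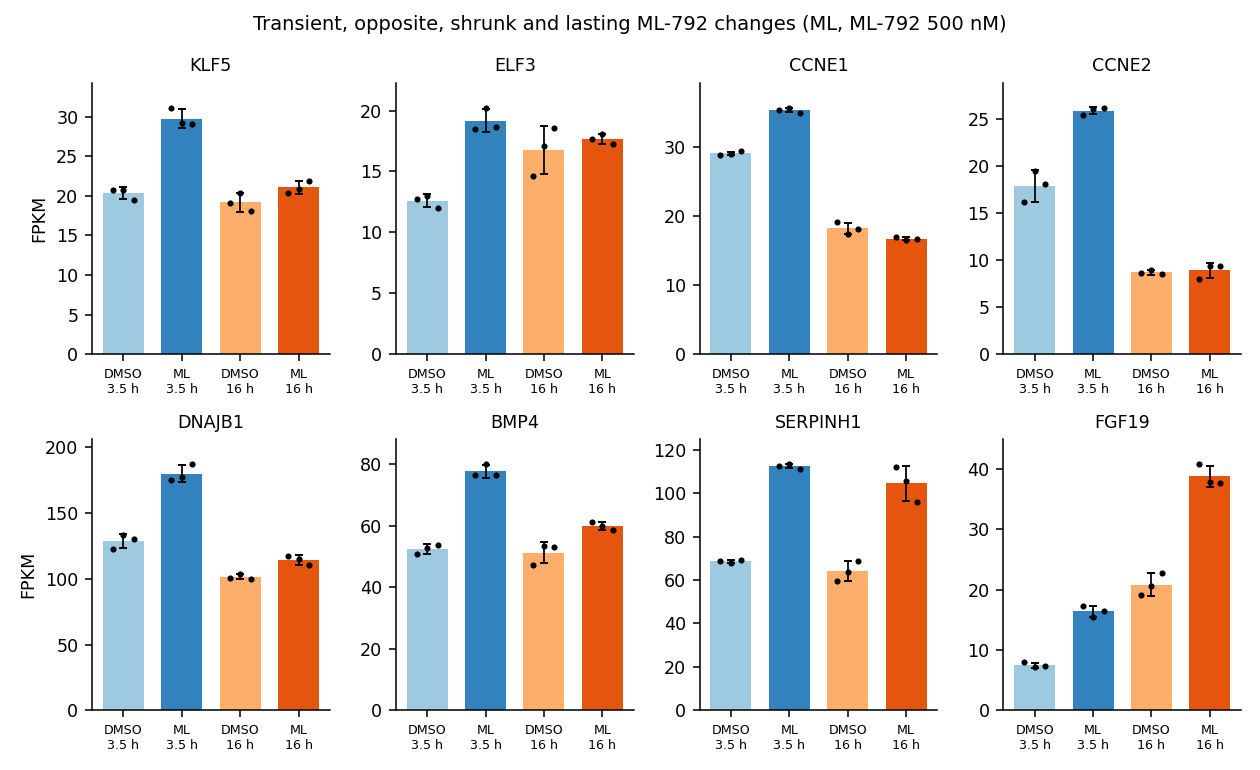
Bars are group means in FPKM with SD (n = 3), points are libraries, and ML stands for ML-792 at 500 nM. KLF5, ELF3, CCNE1, CCNE2, DNAJB1 and BMP4 show a larger step from DMSO to ML-792 at 3.5 h than at 16 h, while SERPINH1 and FGF19 show a step at both times.

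Lasting changes are those with no called difference, which does not show that they were equal, since the median SE of a difference was 0.079. FGF19, a secreted hormone-like growth factor, was at 7.98, 7.22 and 7.27 FPKM in DMSO and 17.3, 15.5 and 16.4 FPKM in ML-792 at 3.5 h. At 16 h FGF19 was at 19.1, 20.6 and 22.8 FPKM in DMSO and 40.8, 37.9 and 37.7 FPKM in ML-792. Treated libraries were above vehicle by 1.04 and 0.87 although the DMSO level itself was higher at 16 h (difference -0.17 ± 0.089, limma adjusted p = 0.366). GDF15, a stress cytokine, rose by 1.04 and 0.71, OSGIN1, an oxidative stress gene, by 0.93 and 1.30, ID2, a helix-loop-helix inhibitor, by 0.72 and 0.82, and ZFP36, an mRNA decay factor, by 0.56 and 0.84. ID3 fell at both times, by 0.65 and 0.57, opposite to ID2. The heat shock element stood in 8.15% and the CHR in 17.8% of the promoters of lasting rises, against 3.81% and 9.05% of all. In rises gained late the shares were 5.33% and 12%. Of 23 promoters of grown rises, 0 held the heat shock element and 6 held the CHR (26.1%).

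H3K9 methylation is a mark of silent chromatin. On the H3K9 silencing list of 18, 5 rose early and 6 late (2.15% and 10.8% of all genes). CHAF1A, a histone chaperone subunit, fell late by 0.20 (9.56% of all genes fell). The difference was called in ATF7IP and CHAF1A (2.4% of all genes). ZNF274, a zinc finger protein that recruits SETDB1, rose by 0.71 and 0.99 and MORC2, a silencing ATPase, by 0.48 and 0.36. SETDB1 itself had -0.002 and 0.068 and TRIM28, a corepressor that works with SETDB1, -0.017 and -0.026. Of 342 tested genes whose names start with ZNF, 40 rose (2.15% of all genes did) and 1 fell at 3.5 h, and 131 rose and 10 fell at 16 h (38.3% up against 10.8% of all genes). Yet the difference was called in 3 of the 342, all higher (1.12% of all genes): ZNF655, ZNF577 and the pseudogene ZNF815P. The difference of ZNF577 was lost without DMSO 16 h library 3, among others. ZNF815P met the filter only through ML-792 at 16 h, so its difference is given as a description. Leaving out 1 library gave 96 to 147 late rises, and 21 higher differences without ML-792 16 h library 1. Early rises numbered 24 without DMSO 3.5 h library 1, and late falls 2 without ML-792 16 h library 3 and 22 without its library 1. In the other alternatives early rises ran from 12 with the filter at 5 FPKM to 69 with library weights. Across all tested genes the late change had a Spearman correlation of -0.485 with GC content. The part of that in the late ZNF rises was not tested.

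The histone list also held both directions. HIST1H2BK and HIST1H1C rose late by 0.57 and 0.42, and the replacement linker histone H1F0 fell by 0.23. These 3 of 13 tested had the difference called (2.4% of all genes did), with no member called at 3.5 h. Of 23 interferon response genes, none was called early, 6 rose late (IFIT1 by 0.41), where 10.8% of all genes did, and none had a called difference. The late rises were 2 with all 18 HCT116 libraries. Of 24 ribosome biogenesis genes, none was called early, 9 fell and 2 rose late, and none had a called difference, against 9.56% and 10.8% of all genes late. Its late falls numbered 5 without DMSO 16 h library 2 and 2 with all 18 HCT116 libraries, and its late rises 0 without DMSO 16 h library 3. Of 13 NF-kB and cytokine genes, RELB rose late by 0.46 and LIF, a cytokine, fell by 0.49, the 2 called differences. The first was lost without DMSO 3.5 h library 1 and the other without DMSO 16 h library 2, among others. Of 20 mitochondrially encoded genes none was called in the 3 comparisons, and their share of summed FPKM was 16.3 to 18.4% at 16 h and 11.5 to 12% at 3.5 h.

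For the lists that follow, the shares of all genes were 2.15% up and 0.786% down early, 10.8% up and 9.56% down late, and 2.4% with a called difference. Of 17 NRF2 targets, 1 rose and 3 fell early, 3 rose and 5 fell late, and HMOX1, the heme-degrading enzyme, fell by 0.53 early and 0.88 late, the 1 called difference. Late rises of NRF2 targets numbered 1 without ML-792 16 h library 2 and 5 without its library 1, and differences 3 without DMSO 16 h library 1. Of 24 genes of cholesterol synthesis, 1 rose early, and 2 rose and 5 fell late. Of 25 immediate early genes, 3 rose and 2 fell early, 5 rose and 6 fell late, and KLF4 and FOSL1, an AP-1 subunit that fell late by 0.48, had lower differences. The early rises were 2 without DMSO 3.5 h library 1 and 5 without DMSO 16 h library 1. Of 18 genes of MAP kinase feedback, 4 rose and 1 fell early, 4 rose and 6 fell late, and the phosphatases DUSP4 (-0.10 and -0.42) and DUSP5 had lower differences, both lost without DMSO 3.5 h library 2, among others. Of 9 EGFR family ligands and receptors, 2 rose and 1 fell at each time, with EREG and AREG the higher differences. Leaving out DMSO 16 h library 2 gave 1 higher difference and leaving out its library 1 gave 3.

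Of 33 short-lived regulators, 7 rose and 2 fell early and 9 rose and 5 fell late. The difference was higher in KLF11 and RGS2 and lower in KLF5, GADD45B (-0.20 and -0.66) and ZFP36L1, a relative of ZFP36 that fell late by 0.47. Of 11 TGF-beta and BMP targets, 2 rose and 2 fell early and 2 rose and 3 fell late, with 4 late rises without DMSO 16 h library 1. Of 18 genes of the hypoxia response, 3 rose and 1 fell early, 2 rose and 2 fell late, late shares close to those of all genes, and none had a called difference. Its late rises were 1 without ML-792 16 h library 2 and 3 without DMSO 16 h library 3, and its late falls 4 without DMSO 16 h library 1. Of the germline list 2 members passed the filter, and ZSCAN31 was the one called.

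In libraries outside the comparison the same genes were read again. Of the 108 genes gained late and higher, 57 were higher with ML-792 at 16 h in COLO205, another colorectal line (52.8%, against 19% of all genes), and 29 in the breast line MDAMB231 (26.9%, against 7.4%). In heat shocked HCT116 cells at 3.5 h, 15 of the 100 tested were higher with ML-792 (15%, against 18.4%) and 24 were lower (24%, against 15.3%). Of the 126 gained late and lower, 49 were lower in COLO205 (38.9%, against 18%) and 39 in MDAMB231 (31%, against 8.01%), and 17 of 124 in the heated cells (13.7%, against 15.3%), where 33 of the 124 were higher (26.6%, against 18.4%). The opposite direction was called in 7 and 15 of these genes in COLO205 and in 4 and 5 in MDAMB231, for the higher and the lower set. Among genes that rose early in unheated cells, 95 of 267 were higher in the heated cells (35.6%) and 29 lower (10.9%), and of those that fell early, 33 of 98 were lower (33.7%) and 5 higher (5.1%). These contrasts share no library with the 16 h and 3.5 h contrasts above, but their fits do. The fit of the heated cells took its filter and spread from all 12 HCT116 libraries of 3.5 h. The fit of COLO205 and MDAMB231 took them from all libraries of 16 h, those of HCT116 included.

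Single genes varied across those libraries. DHRS2 changed by 2.37 in COLO205, 0.78 in MDAMB231 and 0.96 in heated HCT116 cells, with all 3 called. SUMO3 rose by 1.01 in COLO205 and 0.23 in MDAMB231, and CDKN3 by 1.27 and 0.87. ADAM19 fell in COLO205 (-1.52) and in MDAMB231 (-0.39). ITGB4 fell in MDAMB231 (-0.60) and had -0.055 in COLO205 (limma adjusted p = 0.528). RRM2 rose in COLO205 by 0.36 and had 0.081 in MDAMB231, while ODC1 fell by 0.26 in COLO205 and rose by 0.54 in MDAMB231. DKK1 fell in heated HCT116 cells (-0.90) and in MDAMB231 (-0.28) and had 0.095 in COLO205. KLF5 fell in heated cells by 0.50.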

How the data were processed

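Per the labels' protocols, RNA of biological triplicates was made into stranded mRNA libraries and sequenced as 50-base paired reads with 30 M planned per sample. The deposited table holds FPKM per gene; the unit comes from the table and its values. Per the submitters' processing notes, DESeq2 1.10.1 was among their tools. Their aligner, build and annotation: not given in the sources used here. No library counts were used, so depth was estimated from the steps between low values.

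Here log2(FPKM + 1) was fitted with limma 3.58.1 in R 4.3.3 (eBayes with trend and robust, 1 mean per group, 12 libraries) for the 12462 genes that reached 1 FPKM in 3 or more libraries. Calls needed an adjusted p (Benjamini-Hochberg) below 0.05. The labels carry no replicate numbers, and libraries are numbered in accession order. Heat shocked HCT116 cells were fitted together with the unheated HCT116 libraries of 3.5 h. The lines COLO205 and MDAMB231 were fitted together with the HCT116 libraries of 16 h. The fit was also run on simulated data that gave each gene 1 spread in all libraries. The spread differed between the times in the real libraries, so that run cannot speak to calls under unequal spread. Promoters came from RefSeq (GRCh38.p14), and 11739 tested genes matched a RefSeq symbol. Transcript GC content and length came from the longest GENCODE transcript of each gene, for 11745 tested genes. Python 3.11.15, pandas 2.3.3 and matplotlib 3.10.9 were used.

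The comparison and the gene lists were chosen with earlier results of these data known. Genes were named by these rules. The 12 largest called differences on each side were taken among genes above the median level whose treated libraries did not overlap between times. From the grown, shrunk, opposite, transient and lasting patterns, the 5 largest changes of each were taken among genes above the median level. Clone, pseudogene and antisense names were left out of these picks by size. The 3 called members of each list with the smallest adjusted p were added, as were genes of SUMO, SAE1, UBA2 and the SENP proteases. Other genes were named after their values were seen. Alternatives covered the pseudocount, filter, scaling, variance model, libraries in the fit, GC and length trend, and each library left out in turn. Some genes that these rules name are not reported here.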

Additional observations from a re-analysis of the deposited data

Results flagged for a closer look

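The ML-792 change differed between 16 h and 3.5 h, by limma's test of the difference itself, in 299 genes. Differences of at least 2-fold, higher at 16 h, were 2.11 in DHRS2, 1.69 in ACTL8, 1.50 in ASMTL, 1.26 in C20orf112, 1.18 in GRHL1 and 1.12 in ZSCAN31 on the log2(FPKM + 1) scale. ACTL8 met the filter only through ML-792 at 16 h, where it was high, so its value gives no support. Genes called in opposite directions at the 2 times differed by 0.35 in PDE4B, -0.39 in CCNE1, -0.42 in TSPAN14, -0.52 in KIAA0040 and -0.67 in HP08874, which met the filter only through DMSO at 16 h. DMSO at 16 h and 3.5 h differed in 79.1% of genes, and the part of that in these differences was not tested. Groups of 3 were too small for a test of single outlying libraries.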

How the results depend on the processing

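No paired analysis was possible because the libraries carry no replicate number in their labels. Of the 66 named genes with a called difference, 35 were called under each of the 11 alternatives and with each of the 12 libraries left out, 31 were lost under at least 1, and none reversed. The count of differences was 2619 with library weights, 100 with all 18 HCT116 libraries and 805 with the GC and length trend removed, and ranged from 156 to 808 with 1 library left out. It was 261 to 338 under plain eBayes, weights by group, the 2 scalings, pseudocount 5, pseudocount 0.1 and a filter at 5 FPKM, and 237 with no filter. The late count was 5838 with library weights, 1597 with weights by group, 1266 with all 18 libraries and 1316 from the libraries of 16 h alone, and ranged from 1520 to 3862 with 1 library left out. The early count was 1012, 926 and 197 under the first 3 of these settings, 821 with the GC and length trend removed and 728 from the libraries of 3.5 h alone, and ranged from 235 to 475. Equal totals moved the share of higher calls from 46.8% to 35.5% for the difference, from 53.1% to 36.0% for the late change and from 47.1% to 60.1% for DMSO between the times, and removing the GC and length trend moved the early share from 73.2% to 59.6%. Genes gained late numbered 109 to 663 with 1 library left out, and lasting genes 140 to 257. Weights by group were added after the spread of the libraries was seen, and the library weights used the gene-by-gene method because the default did not converge. The cause of these shifts was not tested. Depth was estimated, not counted, which limits low genes most.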
